A study of Mus musculus with 6 samples.

Results

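The 9 genes Cyp4a10, Cyp4a12a, Cyp4a12b, Cyp4a14, Cyp4b1, Cyp4f13, Cyp4f14, Cyp4f15 and Cyp4v3 encode enzymes of cytochrome P450 family 4 and were taken by their symbols from the 22068 symbols measured in 6 mouse liver libraries. Of these 9 genes, 8 reached a mean of 1 RPKM (reads per kilobase of gene, scaled to the reads of the library) over the libraries and were tested among 11062 genes; Cyp4a12b did not reach it. Livers labelled Mst1/2 liver-dKO (dKO below) carried Mst1-/-, Mst2fl/fl and alb-Cre+/+, and livers labelled control carried Mst1-/-, Mst2fl/fl and alb-Cre-/-, with 3 libraries in each group. All mice were C57BL/6 and 6 weeks old, so both groups were Mst1-/- by their labels, and the comparison asked what changed when Cre under the albumin promoter, which acts in hepatocytes and their liver precursors, could also delete Mst2. Mst1 and Mst2 are kinases of the Hippo pathway, which holds back the transcriptional coactivators YAP and TAZ. The labels do not say whether replicates of a group were separate animals, so p-values measure only the spread between these libraries, which may be technical.

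Family 4 enzymes sit in the endoplasmic reticulum and add a hydroxyl group to the far (omega) end of a fatty acid, taking electrons from P450 oxidoreductase. The omega-hydroxylated acid is then oxidised by alcohol and aldehyde dehydrogenases to a dicarboxylic acid, which is shortened in peroxisomes. In mouse liver the Cyp4a10 and Cyp4a14 genes are known as targets of the fatty acid receptor PPARA, while Cyp4a12a is known for higher expression in males. The Cyp4f enzymes are known for hydroxylating leukotrienes and the side chain of vitamin E.

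The sequences below show the haem-binding signature of P450 enzymes in general, a stretch in which a cysteine holds the haem iron. They were read from the coding sequences of GENCODE M21 transcripts (build GRCm38, coding strand, 5′ to 3′), where the protein pattern for this signature matched once in each gene; the capitals mark the cysteine codon.
Cyp4a10: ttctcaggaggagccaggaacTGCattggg
Cyp4a12a: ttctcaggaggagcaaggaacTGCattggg
Cyp4a12b: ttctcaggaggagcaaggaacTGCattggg
Cyp4a14: ttctcaggaggatcaaggaacTGCattggg
Cyp4b1: ttttctgcagggcccaggaatTGCattggg
Cyp4f13: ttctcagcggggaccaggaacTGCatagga
Cyp4f14: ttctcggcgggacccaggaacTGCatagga
Cyp4f15: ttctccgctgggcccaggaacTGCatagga
Cyp4v3: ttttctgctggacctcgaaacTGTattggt
The stretch was interrupted by an intron in all 9 genes, after 17 of its 30 bases in 8 genes and after 28 in Cyp4v3. The coding sequences ran from 507 codons in Cyp4a14 to 534 codons in Cyp4f15, without the stop codon. In GRCm38, which is not the mm9 build of the deposited values, the Cyp4a genes and Cyp4b1 lie on chromosome 4, with Cyp4a14 at chr4:115486200-115496142 on the minus strand and Cyp4a10 at chr4:115518264-115533649 on the plus strand. Cyp4f13, Cyp4f14 and Cyp4f15 lie on chromosome 17, with Cyp4f14 at chr17:32905070-32917342 on the minus strand, and Cyp4v3 lies at chr8:45304944-45333216 on the minus strand.

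Some members are near-identical, which bears on how far their reads can be told apart. The coding sequences of Cyp4a12a and Cyp4a12b were 98.49% identical, with 23 differing bases and a run of 342 identical bases. The most different 60 coding bases of this pair (bases 624 to 683, split by the intron between exons 5 and 6, GRCm38 chr4:115326309-115326681 in Cyp4a12a and chr4:115432561-115432934 in Cyp4a12b, plus strand, capitals marking the 4 differences) were these.
Cyp4a12a: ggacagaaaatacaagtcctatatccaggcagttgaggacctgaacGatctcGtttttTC
Cyp4a12b: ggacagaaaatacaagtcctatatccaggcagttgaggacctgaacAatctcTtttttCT
Cyp4a10 was 97.19% identical to Cyp4a32 and 96.6% to Cyp4a31, neighbouring genes that are not among the 9. Their most different 60 coding bases (bases 200 to 259, all in exon 2 on the plus strand, GRCm38 chr4:115519640-115519699, chr4:115565020-115565079 and chr4:115602270-115602329 in the order printed, capitals marking the 9 positions at which the 3 genes are not all alike) read as follows.
Cyp4a10: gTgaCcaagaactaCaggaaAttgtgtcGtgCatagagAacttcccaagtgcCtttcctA
Cyp4a31: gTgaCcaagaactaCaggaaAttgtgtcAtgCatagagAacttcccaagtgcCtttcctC
Cyp4a32: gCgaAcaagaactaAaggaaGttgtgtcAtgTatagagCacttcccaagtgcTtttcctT
Of all 50-base windows of its transcript, Cyp4a12a shared 48.88% and Cyp4a12b 49.45% with transcripts of another gene, and Cyp4a10 shared 30.49%, mostly with Cyp4a32. Cyp4a14 shared 0.25%, Cyp4b1 10.31% (with pseudogenes), Cyp4v3 7.02% (with the overlapping gene Gm45753), and the 3 Cyp4f genes between 2.45% and 2.72%. How the authors assigned such reads is not given in the sources used here, so the single values of Cyp4a12a, Cyp4a12b and Cyp4a10 are uncertain, and those of Cyp4a14 are hardly touched by shared sequence.

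The targeted genes did not separate the groups. Stk3, the gene of Mst2, measured 5.13, 4.25 and 5.32 RPKM in dKO replicates 1, 2 and 3 and 6.00, 5.42 and 5.20 RPKM in control replicates 1, 2 and 3 (limma adjusted p of 0.424), and Stk4, the gene of Mst1, measured 4.93 to 5.84 RPKM in dKO and 4.66 to 5.50 RPKM in control libraries. Values summed over a whole gene can hold reads from exons outside a deletion, and the deleted exons are not given in the sources used here, so these values do not check the genotypes. The RPKM of all genes summed to between 324034 and 352678 in dKO and to between 364571 and 368246 in control libraries. Depth, estimated from how low values are spaced, was 20.9 to 24.05 M reads in dKO and 17.1 to 24.5 M reads in control libraries. The first principal component held 67.3% of the variance and put dKO replicate 3 at -49.0, dKO replicates 1 and 2 at -20.3 and -19.2, and the controls between 25.5 and 35.7. Xist measured 79.7 to 93.5 RPKM in dKO and 55.7 to 65.1 RPKM in control libraries, while no library held more than 0.027 RPKM of any of 4 Y-linked genes, the pattern of female tissue; the labels give no sex. Of 12 hepatocyte markers 4 were called lower (0 without dKO replicate 1, dKO replicate 3, control replicate 1 or control replicate 3), and their summed level was 52419 to 62218 RPKM in dKO and 55041 to 71532 RPKM in control livers. All 9 tested cholangiocyte markers of 14 were called higher, and the summed level of the 14 was 413 to 1119 RPKM in dKO and 42.4 to 101 RPKM in control livers, with none of the 14 at 0 in all libraries. Of 12 stellate markers 2 were called higher (1 to 4 with 1 library left out, summed level 206 to 356 RPKM in dKO and 182 to 195 RPKM in control). Of 9 tested macrophage markers 2 were called higher (1 to 6 with 1 library left out, 204 to 307 RPKM in dKO and 124 to 239 RPKM in control). No call was made for the 10 endothelial markers by limma, with 0 also at an unadjusted p under 0.05 (123 to 141 RPKM in dKO and 114 to 121 RPKM in control). Of 3 tested lymphocyte and neutrophil markers 0 were called by limma and 1 was lower at an unadjusted p under 0.05 (summed level of 10 markers 43.0 to 79.2 RPKM in dKO and 54.5 to 112 RPKM in control). Over all tested genes limma called 17.8% higher and 2.17% lower in dKO at an adjusted p under 0.05. The higher calls of stellate and macrophage markers were near that share. The part of these markers in the results below was not tested. In whole liver, fewer cells of a type and less RNA per cell cannot be told apart.

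The 2 PPARA-regulated members, Cyp4a10 and Cyp4a14, were lower in dKO livers, Cyp4a12a was measured higher from a very low level without passing the test, and no other tested member passed the test. Of those, Cyp4f15 and Cyp4v3 lay lower in every dKO than in every control library, and Cyp4b1, Cyp4f13 and Cyp4f14 overlapped. Across the 11062 genes, limma called 2.17% lower and 17.8% higher in dKO at a Benjamini-Hochberg adjusted p under 0.05. Against this background 2 of the 8 tested members were called lower and 0 higher, where 19.9% of all genes were called in either direction. Their median log2 difference was -0.40 where that of all tested genes was 0.23. At an unadjusted limma p under 0.05, 4 members were lower and 1 was higher, namely Cyp4a12a, which reached the filter only through its dKO values. Such p-values were common among all genes: Cyp4f15, at an unadjusted limma p of 0.04865, ranked 4151 by p among the 11062. A difference below 0 was measured for 6 of the 8 and for 23.9% of all tested genes. Median-ratio scaling, which moves the median of all genes to -0.005, gave 3 members lower and 0 higher, with 5.55% of all genes lower and 7.89% higher; the member added was Cyp4f15. The groups did not overlap, with dKO lower, at 4 of the 8 tested members and at 6.73% of all tested genes, and with dKO higher at 1 of the 8 and at 38.3% of all. All differences were taken on the scale of log2(RPKM + 1) with control subtracted from dKO, so that the change of genes with low values is understated.

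**Figure D1:**
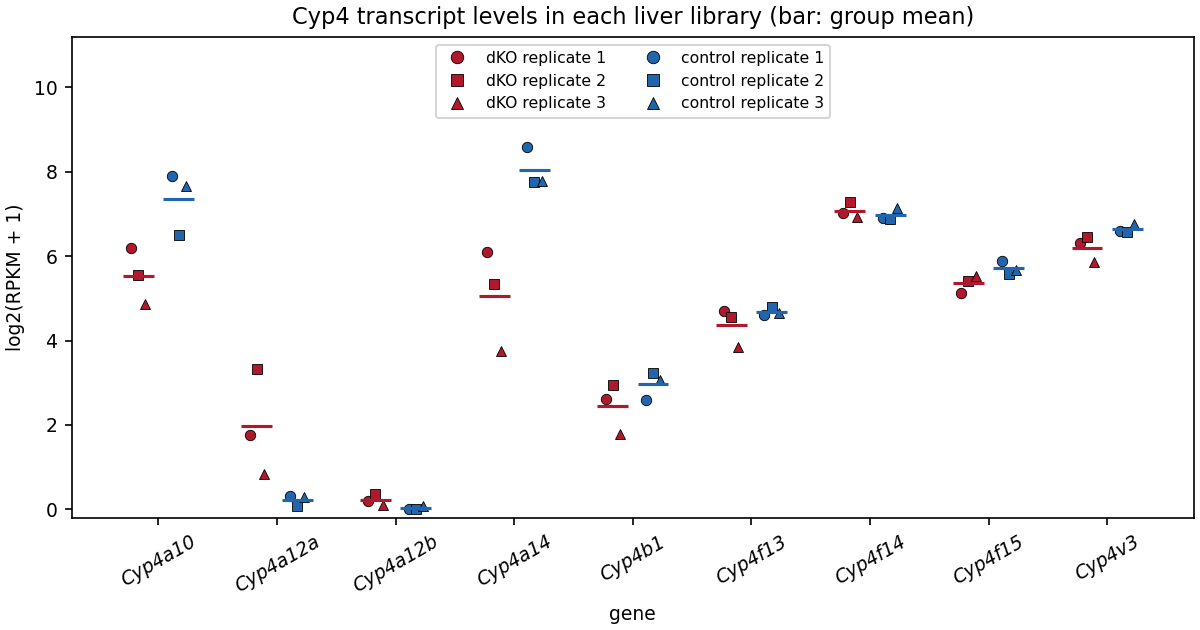
Transcript levels of the 9 Cyp4 genes as log2(RPKM + 1), with 1 point per library, the replicate number as marker shape, dKO in red left of control in blue, and a bar at each group's mean. Cyp4a10 and Cyp4a14 lie lower in all dKO than in all control libraries, Cyp4a12a lies higher, and Cyp4f14 overlaps between the groups.

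Cyp4a14, a fatty acid omega-hydroxylase that is strongly induced by PPARA agonists, measured 68.1, 39.3 and 12.5 RPKM in dKO replicates 1, 2 and 3, against 381, 217 and 218 RPKM in control replicates 1, 2 and 3. The groups were far apart, and the dKO libraries differed among themselves by 5.43-fold from highest to lowest, the controls by 1.758-fold. Its mean was 39.98 ± 27.8 RPKM in dKO and 272 ± 94.8 RPKM in control livers (SD, n = 3 each), 0.147 of the control level. limma gave a log2 difference of -2.97 ± 0.60 (SE; 95% interval -4.42 to -1.53) at an adjusted p of 0.0215, and it was -2.32 without dKO replicate 3 and -3.49 without dKO replicate 1. The call was lost without any 1 of the control libraries, at a limma adjusted p of 0.0776, 0.0552 and 0.0531 without control replicates 1, 2 and 3.

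Cyp4a10, the closest enzyme in role, also a PPARA-induced fatty acid omega-hydroxylase, measured 72.2, 46.0 and 28.4 RPKM in dKO replicates 1, 2 and 3, against 238, 89.4 and 201 RPKM in control replicates 1, 2 and 3. The groups did not overlap, though control replicate 2 lay nearer to dKO replicate 1 than to the other controls. The means were 48.9 ± 22.0 RPKM in dKO and 176 ± 77.3 RPKM in control livers (SD, n = 3 each), 0.277 of the control level. limma gave a log2 difference of -1.81 ± 0.45 (SE; 95% interval -2.87 to -0.75) at an adjusted p of 0.0332. The Cyp4a10 call did not hold without dKO replicate 2 or 3 or control replicate 1 or 3, where the limma adjusted p lay between 0.0691 and 0.103, without the filter on low values (0.0553) and under quantile normalization (0.0534).

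Cyp4a32 and Cyp4a31, the copies that share sequence with Cyp4a10, lay lower in every dKO than in every control library, and Cyp4a32 passed the test. Cyp4a32 measured 2.03, 1.72 and 1.007 RPKM in dKO and 4.01, 2.81 and 7.31 RPKM in control replicates 1, 2 and 3, for a log2 difference of -1.09 ± 0.29 (SE), limma adjusted p 0.0347; the call was lost without each library other than control replicate 2. Cyp4a31 measured 7.96, 11.8 and 10.6 RPKM in dKO and 29.9, 13.1 and 15.0 RPKM in control replicates, and its log2 difference of -0.80 ± 0.29 (SE) had a limma adjusted p of 0.0913. Because they share sequence with Cyp4a10, the single values of Cyp4a32 and Cyp4a31 are uncertain too. With the RPKM of Cyp4a10, Cyp4a12a, Cyp4a12b and Cyp4a14 added up as 1 value, the log2 difference was -2.36 ± 0.46 (SE), limma adjusted p 0.0152. This sum left out Cyp4a31 and Cyp4a32, so it does not settle how reads shared with Cyp4a10 were assigned.

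Cyp4a12a, the arachidonic acid omega-hydroxylase of mouse that is known to be higher in male liver and kidney, measured 2.42, 9.02 and 0.796 RPKM in dKO replicates 1, 2 and 3, against 0.238, 0.0493 and 0.217 RPKM in control replicates 1, 2 and 3. All dKO libraries lay above all controls, and dKO replicate 2 held 11.34 times the level of dKO replicate 3. By the estimated depths these values stand for about 126, 457 and 46.3 reads in dKO libraries and about 9.86, 2.92 and 10.8 reads in control libraries, so the control levels are set by few reads. The means were 4.08 ± 4.36 RPKM in dKO and 0.168 ± 0.103 RPKM in control livers (SD, n = 3 each), a ratio of 24.3 that was 9.55 without dKO replicate 2. The log2 difference of 1.76 ± 0.57 (SE; 95% interval 0.39 to 3.13) had a limma adjusted p of 0.0727, which missed the threshold. Cyp4a12a reached the mean of 1 RPKM only through its dKO values, so the filter favours the direction measured, and a filter asking for 1 RPKM in at least 3 libraries leaves it out. Within that limit it passed under 5 of 16 alternatives that kept the threshold, in which the limma adjusted p ran from 0.0166 to 0.185. Among these were a pseudocount of 0.1 (log2 difference 3.44, limma adjusted p of 0.024) and leaving out dKO replicate 2 or 3 (0.044 and 0.023). In each of these passes the gene was kept by way of its dKO values, so they are no separate support.

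Cyp4a12b, its near-identical copy, was listed at 0.153, 0.294 and 0.0685 RPKM in dKO replicates 1, 2 and 3 and at 0, 0 and 0.0598 RPKM in control replicates 1, 2 and 3. With its mean of 0.0958 RPKM it was not tested, and no ratio is given because 2 control libraries were at 0. With the RPKM of both copies added up, the log2 difference was 1.79 ± 0.57 (SE), limma adjusted p 0.0691.

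None of the Cyp4f members passed the test under the main settings, and among them the log2 difference of Cyp4f14 was the smallest in size. Cyp4f14, known in mouse for the omega-hydroxylation of vitamin E and leukotriene B4, measured 128, 156 and 121 RPKM in dKO replicates 1, 2 and 3, against 118, 117 and 141 RPKM in control replicates 1, 2 and 3. The groups overlapped, with means of 135 ± 18.5 RPKM in dKO and 125 ± 13.6 RPKM in control livers (SD, n = 3 each). The log2 difference was 0.10 ± 0.17 (SE), limma adjusted p 0.663, and its 95% interval of -0.27 to 0.48 bounds the change but does not show that the levels were alike; the sign turned to -0.18 by median-ratio scaling, to -0.16 by upper-quartile scaling and to -0.025 by sample weights.

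Cyp4f15, a relative in the same cluster of chromosome 17, measured 34.2, 41.4 and 45.6 RPKM in dKO replicates 1, 2 and 3, against 58.6, 47.1 and 50.03 RPKM in control replicates 1, 2 and 3. Every dKO library lay below every control, by a small margin between dKO replicate 3 and control replicate 2. The log2 difference was -0.36 ± 0.16 (SE; 95% interval -0.71 to -0.0026) with a limma adjusted p of 0.13, and -0.64 with a limma adjusted p of 0.0422 after median-ratio scaling.

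Cyp4f13 measured 25.1, 22.5 and 13.4 RPKM in dKO replicates 1, 2 and 3, against 23.4, 26.7 and 24.2 RPKM in control replicates 1, 2 and 3. dKO replicate 3 lay below the other 5 libraries, which spanned 22.5 to 26.7 RPKM, and the log2 difference of -0.32 ± 0.21 (SE) had a limma adjusted p of 0.3. Without dKO replicate 3 it was -0.057.

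Cyp4v3, the mouse counterpart of the human CYP4V2 fatty acid hydroxylase gene that is mutated in a crystalline retinal dystrophy, measured 78.7, 86.2 and 56.8 RPKM in dKO replicates 1, 2 and 3, against 96.5, 94.9 and 107 RPKM in control replicates 1, 2 and 3. The groups did not overlap, and dKO replicate 3 was again the lowest. The means were 73.9 ± 15.3 RPKM in dKO and 99.4 ± 6.47 RPKM in control livers (SD, n = 3 each), and the log2 difference of -0.44 ± 0.18 (SE; 95% interval -0.86 to -0.03) had a limma adjusted p of 0.111.

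Cyp4b1, best known as a lung enzyme that activates foreign compounds, was low in liver at 5.15, 6.69 and 2.43 RPKM in dKO replicates 1, 2 and 3, against 5.05, 8.33 and 7.40 RPKM in control replicates 1, 2 and 3. The groups overlapped, and the log2 difference of -0.52 ± 0.30 (SE) had a limma adjusted p of 0.244. dKO replicate 3 held the lowest value of all 6 libraries for 5 of the 9 genes, namely Cyp4a10, Cyp4a14, Cyp4b1, Cyp4f13 and Cyp4v3.

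**Figure D2:**
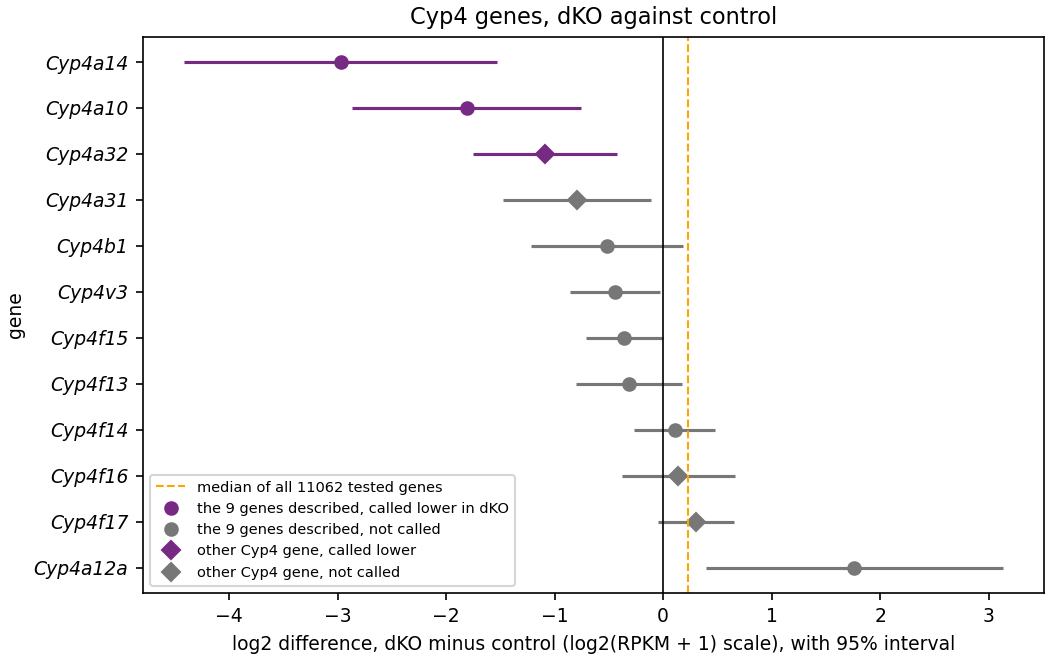
Log2 differences of the 8 tested genes (circles) and the 4 other tested Cyp4 genes (diamonds), as log2(RPKM + 1) in dKO less that in control, with 95% intervals and the median of all 11062 tested genes as a dashed line. The called genes Cyp4a14, Cyp4a10 and Cyp4a32 lie at -2.97, -1.81 and -1.09, and Cyp4a12a lies at 1.76 with the interval from 0.39 to 3.13.

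The files held 20 rows of Cyp4a, Cyp4b, Cyp4f, Cyp4v and Cyp4x genes, of which 11 are not among the 9 and 4 of those were tested. Besides Cyp4a31 and Cyp4a32 these were Cyp4f16 and Cyp4f17, at 1.52 to 4.96 RPKM in dKO and 1.19 to 4.44 RPKM in control libraries, with limma adjusted p of 0.673 and 0.18. Of the rest, 3 were listed at 0 in all libraries, Cyp4x1 among them.

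RPKM is set per length, so the levels of the genes can be ordered. By mean RPKM the dKO order was Cyp4f14, Cyp4v3, Cyp4a10, Cyp4f15, Cyp4a14, Cyp4f13, Cyp4b1, Cyp4a12a and Cyp4a12b, in which only Cyp4f14 and Cyp4v3, Cyp4f13 and Cyp4b1, and Cyp4a12a and Cyp4a12b were neighbours whose libraries did not overlap. The control order by mean RPKM was Cyp4a14, Cyp4a10, Cyp4f14, Cyp4v3, Cyp4f15, Cyp4f13, Cyp4b1, Cyp4a12a and Cyp4a12b. There Cyp4a14 overlapped with Cyp4a10, Cyp4a10 with Cyp4f14, and Cyp4a12a with Cyp4a12b, and the other neighbours did not overlap. Cyp4f14 held the highest level of the 9 in every dKO library and Cyp4a14 did so in every control library.

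The 9 genes together summed to 368 ± 75.0 RPKM in dKO and 757 ± 160 RPKM in control livers (SD, n = 3 each), at 281 to 414 RPKM in dKO and 600 to 921 RPKM in control libraries. Cyp4a10 and Cyp4a14 made up 23.1 ± 9.84% of this sum in dKO and 58.1 ± 8.31% in control livers. The 3 Cyp4f genes made up 54.4 ± 9.41% in dKO and 27.4 ± 5.17% in control livers. The shares of a sum move together, so the larger Cyp4f share in dKO livers is not a rise of these genes.

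**Figure D3:**
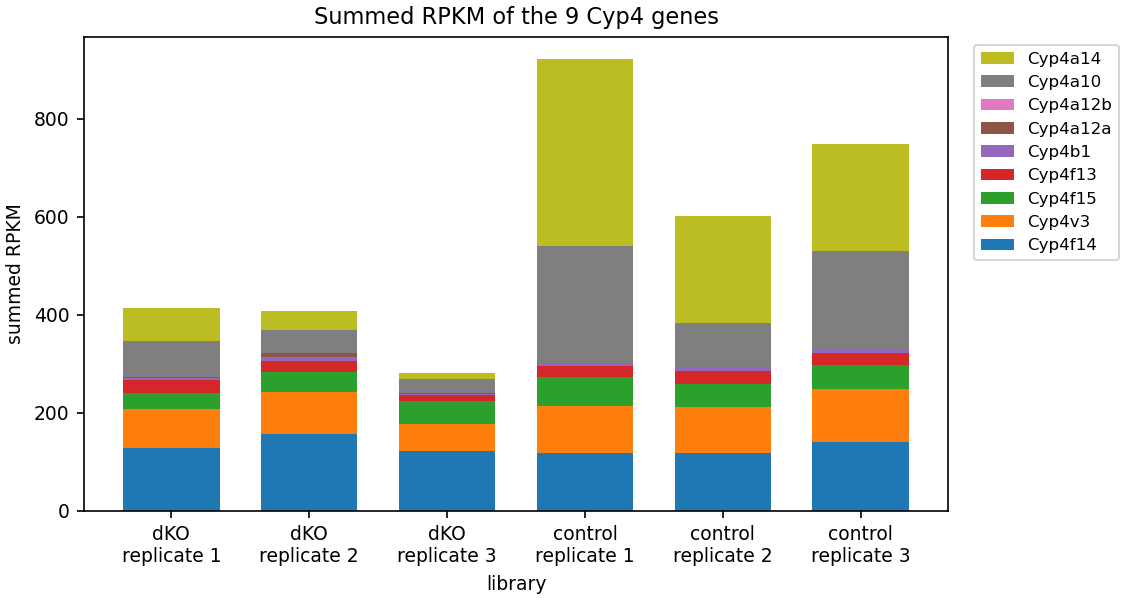
Summed RPKM of the 9 Cyp4 genes in each library, stacked by gene, with the dKO libraries left of the controls. The sums lie between 281 and 414 RPKM in dKO and between 600 and 921 RPKM in control libraries, and the Cyp4a10 and Cyp4a14 segments at the top are the ones that differ most in height.

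Ratios within a library do not depend on its scaling, and 4 of the 5 planned pairs of members gave one. Cyp4a14 to Cyp4f14 stood at 0.531, 0.252 and 0.104 in dKO replicates 1, 2 and 3, against 3.24, 1.86 and 1.54 in control replicates 1, 2 and 3. The log2 ratio differed by -3.13 between groups that did not overlap (exact two-sided permutation p = 0.1, the smallest that 3 against 3 can give; Benjamini-Hochberg adjusted p = 0.2 over 4 ratios). Cyp4a10 to Cyp4a14 stood at 1.06, 1.17 and 2.26 in dKO and 0.624, 0.412 and 0.925 in control replicates, so that Cyp4a14 was the lower of the 2 in every dKO library and the higher in every control library (log2 difference of the ratio 1.19, exact two-sided permutation p = 0.1, adjusted p = 0.2). Cyp4f14 to Cyp4f13 differed by 0.44 and Cyp4f14 to Cyp4f15 by 0.47 on the log2 scale, each with an exact two-sided permutation p of 0.2 and an adjusted p of 0.2.

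The gene of PPARA, the receptor with Cyp4a10 and Cyp4a14 as known targets, did not pass the test itself. The activity of the receptor was not measured. Ppara measured 34.5, 36.1 and 25.9 RPKM in dKO replicates 1, 2 and 3, against 25.7, 29.5 and 38.0 RPKM in control replicates 1, 2 and 3, which overlapped (log2 difference 0.05 ± 0.18 (SE), limma adjusted p of 0.843, with its sign turning under several alternatives). Its dimer partner Rxra measured 67.0 to 72.2 RPKM in dKO and 68.6 to 71.6 RPKM in control libraries, with a limma adjusted p of 0.932. The coactivator gene Ppargc1a measured 3.94 to 4.76 RPKM in dKO and 2.90 to 3.997 RPKM in control libraries, with a limma adjusted p of 0.23. Among the 11062 genes the background rate was 17.8% for higher calls and 2.17% for lower calls. Of 14 receptors and cofactors, limma called 1 higher and 0 lower (2 and 1 at an unadjusted p under 0.05). The higher one was Rxrg, a retinoid X receptor gene at 1.58 to 3.47 RPKM over all libraries, with a limma adjusted p of 0.049 and a call that was lost after median-ratio scaling and without each library other than control replicate 2.

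Other known PPARA targets were called in both directions. Of 45 tested targets, 6 were called lower and 6 higher (7 and 4 after median-ratio scaling), where 2.17% of all tested genes were called lower and 17.8% higher. The share called higher lay below that among all genes. The median log2 difference of the 45 was -0.21 where that of all tested genes was 0.23. The lower ones were Acot3 (which is also on the female-biased list), Acot4, Acadl, Decr2, Ehhadh and Slc27a2 and the higher ones Acot2, Angptl4, Cd36, Fabp2, Slc27a1 and Txnip. Lower calls numbered 2 without control replicate 1 or 3 and 3 without dKO replicate 3, and higher calls 2 without control replicate 1. Acot3, an acyl-CoA thioesterase gene of peroxisomes, measured 3.83, 3.53 and 2.29 RPKM in dKO replicates 1, 2 and 3, against 24.2, 8.82 and 14.8 RPKM in control replicates 1, 2 and 3, a log2 difference of -1.92 ± 0.33 (SE), limma adjusted p 0.00996. Cd36, which encodes a fatty acid uptake protein, measured 75.6 to 82.6 RPKM in dKO and 12.2 to 16.4 RPKM in control libraries (log2 difference 2.43, limma adjusted p of 0.000364). Acot2, a mitochondrial thioesterase gene, measured 7.32 to 9.69 RPKM in dKO and 4.28 to 4.63 RPKM in control libraries (log2 difference 0.80, limma adjusted p of 0.00776).

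Of 19 tested genes that act after omega-hydroxylation, limma called 4 lower and 0 higher (5 and 0 after median-ratio scaling, 6 and 1 at an unadjusted p under 0.05), with a median log2 difference of -0.17. Over all tested genes 2.17% were called lower and 17.8% higher. The 4 were Adh7, an alcohol dehydrogenase gene, Abcd2, a peroxisomal transporter gene, Acot4, a thioesterase gene for dicarboxylic acids, and Ehhadh, the bifunctional enzyme gene of peroxisomal beta-oxidation. Ehhadh measured 103, 72.3 and 69.9 RPKM in dKO replicates 1, 2 and 3, against 126, 172 and 124 RPKM in control replicates 1, 2 and 3 (log2 difference -0.78, limma adjusted p of 0.0323). Abcd2 measured 15.6 to 20.9 RPKM in dKO and 25.3 to 32.4 RPKM in control libraries (-0.69, limma adjusted p of 0.0179), and Acot4 8.75 to 10.7 RPKM in dKO and 14.5 to 16.0 RPKM in control libraries (-0.58, limma adjusted p of 0.0152). Aldh3a2, the fatty aldehyde dehydrogenase gene, measured 71.3 to 93.1 RPKM in dKO and 72.0 to 84.6 RPKM in control libraries, with a limma adjusted p of 0.659. Abcd3, another peroxisomal transporter gene, measured 93.4 to 125 RPKM in dKO and 93.3 to 113 RPKM in control libraries, with a limma adjusted p of 0.949. None of the 19 was called lower without control replicate 1 or 3, 1 was without dKO replicate 3, and 2 were without dKO replicate 2. Acot4 and Ehhadh are also on the list of PPARA targets. The Ehhadh call was lost without each library other than dKO replicate 1.

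Among 14 tested genes for electron supply and haem, 2 were called lower and 1 higher (5 and 0 after median-ratio scaling), where 2.17% of all tested genes were called lower and 17.8% higher. Por, the P450 oxidoreductase gene, measured 40.3, 38.9 and 41.3 RPKM in dKO replicates 1, 2 and 3, against 72.2, 51.2 and 59.0 RPKM in control replicates 1, 2 and 3, for a log2 difference of -0.57 ± 0.15 (SE), limma adjusted p 0.0341. The dKO values lay close together below all controls. Cyb5b, a cytochrome b5 gene, measured 59.9 to 81.9 RPKM in dKO and 94.6 to 105 RPKM in control libraries (-0.54, limma adjusted p of 0.0467), and Ppox, a haem synthesis gene, 7.23 to 8.42 RPKM in dKO and 4.19 to 5.82 RPKM in control libraries (0.58, limma adjusted p of 0.0257). The calls of Por and Cyb5b were lost without each of 5 of the 6 libraries, with dKO replicate 1 as the exception for Cyb5b and control replicate 2 for Por, and that of Ppox without 4, with limma adjusted p of up to 0.127.

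Of 19 tested genes of other arachidonic acid pathways, limma called 6 higher and 0 lower (9 and 0 at an unadjusted p under 0.05, 3 and 0 after median-ratio scaling and without dKO replicate 3, control replicate 1 or control replicate 3). Their median log2 difference was 0.34, against 0.23 for the 11062 genes. In that background limma gave a higher call to 17.8% and a lower call to 2.17%. After median-ratio scaling these background rates were 7.89% and 5.55%. Ptgds, a prostaglandin D synthase gene, measured 94.8 to 153 RPKM in dKO and 2.17 to 6.52 RPKM in control libraries. Ephx1, a microsomal epoxide hydrolase gene, measured 288 to 316 RPKM in dKO and 96.0 to 139 RPKM in control libraries (log2 difference 1.36, limma adjusted p of 0.00299). Ptgr1, a gene for breakdown of prostaglandins and leukotrienes, measured 7.56 to 13.02 RPKM in dKO and 0.603 to 1.95 RPKM in control libraries (2.15, limma adjusted p of 0.00295).

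**Figure D4:**
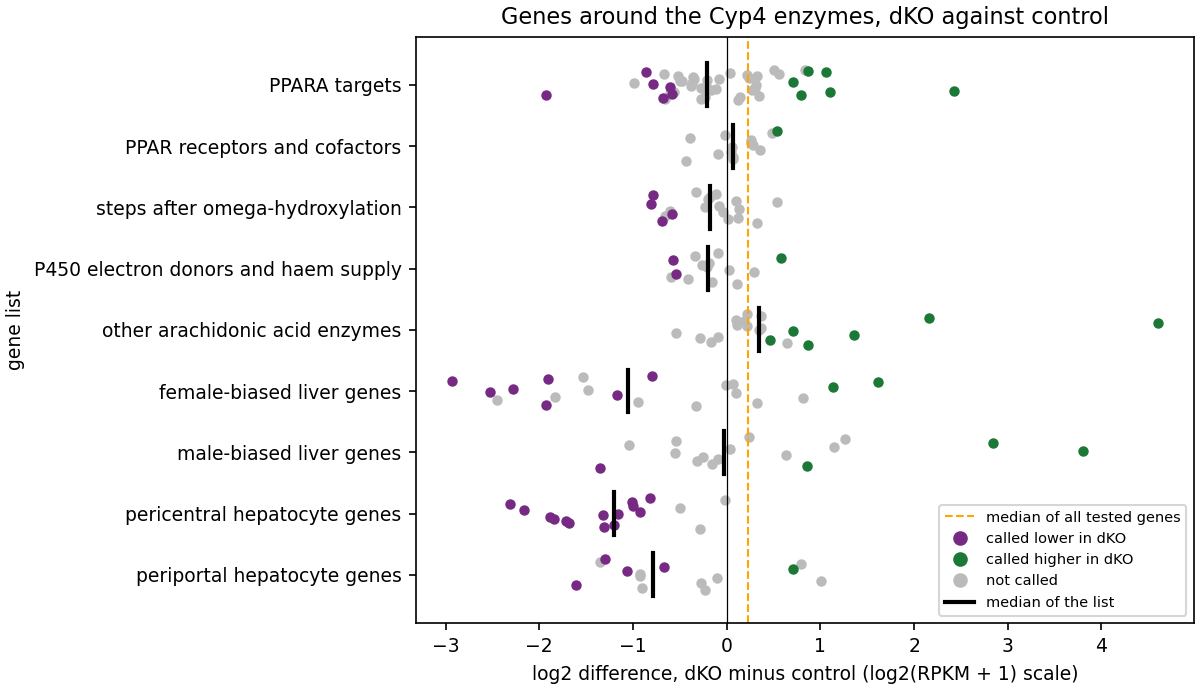
Log2 differences of the tested genes of 9 lists, as log2(RPKM + 1) in dKO less that in control, with called genes in colour, each list's median as a black bar and the median of all tested genes as a dashed line. PPARA targets lie on both sides of 0 with a median of -0.21, and the pericentral list has a median of -1.20.

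Cyp4a12a is known as male-biased in mouse liver and Cyp4a14 as female-biased, so their values are given beside lists of sex-biased genes. Of 20 tested genes with female bias, 7 were called lower and 2 higher (8 and 1 after median-ratio scaling), with a median log2 difference of -1.06; lower calls numbered 2 without control replicate 3, 3 without control replicate 1 and 4 without dKO replicate 3. Sult2a2, a bile acid sulfotransferase gene, measured 83.7 to 138 RPKM in dKO and 275 to 473 RPKM in control libraries (log2 difference -1.90, limma adjusted p of 0.00372). Prom1, which is also a cholangiocyte marker, was one of the 2 called higher, at 20.1 to 32.7 RPKM in dKO and 6.01 to 9.73 RPKM in control libraries. Of 16 tested genes with male bias, 3 were called higher and 1 lower, with a median log2 difference of -0.03. After median-ratio scaling the male-biased calls were 2 higher and 1 lower, and 2 were lower without dKO replicate 1 or control replicate 2. The male-biased share with a higher call was near the background rate of 17.8% among the 11062 genes, where 2.17% had a lower call. The median log2 difference of the 11062 was 0.23, above that of the male-biased list. Mup20, a major urinary protein gene, measured 32.7, 64.5 and 25.6 RPKM in dKO replicates 1, 2 and 3, against 1.69, 1.62 and 2.05 RPKM in control replicates 1, 2 and 3. Its highest dKO value and its lowest lay in the same libraries, replicates 2 and 3, as those of Cyp4a12a. The other called genes of the list, Selenbp2, C6 and Bcl6, did not share this order. Among its tested genes without a call, C8a, Cyp2u1, Hsd3b5, Mup3, Mup21, Slco1a1 and Ugt2b1 shared it. Cyp2d9, Cyp7b1, Gstp1, Nudt7 and Serpina1e did not. Selenbp2, a selenium-binding protein gene, measured 41.9, 66.4 and 133 RPKM in dKO replicates 1, 2 and 3 and 5.14 to 12.1 RPKM in control libraries. Bcl6, a transcriptional repressor gene, measured 5.20, 3.61 and 2.67 RPKM in dKO replicates 1, 2 and 3 and 9.78 to 13.2 RPKM in control libraries.

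Cyp4a genes are known to be expressed most around the central vein, and the pericentral hepatocyte list was called lower in most members. Of 17 tested pericentral genes limma called 14 lower and 0 higher (15 and 0 at an unadjusted p under 0.05, and 9 and 0 without control replicate 1), with a median log2 difference of -1.20 and a summed level of 1348 to 2383 RPKM in dKO and 4801 to 5544 RPKM in control livers. Glul, the pericentral glutamine synthetase gene, measured 77.7, 50.7 and 48.0 RPKM in dKO replicates 1, 2 and 3, against 217, 230 and 200 RPKM in control replicates 1, 2 and 3. Of 14 tested periportal genes 4 were called lower and 1 higher (5 and 0 after median-ratio scaling, 2 and 0 without control replicate 1 or 3), with a median log2 difference of -0.79. Of 15 tested acute phase genes 3 were called higher and 3 lower (1 and 3 after median-ratio scaling, 1 and 0 without dKO replicate 1, dKO replicate 3 or control replicate 1). The background rates in the main fit of the 11062 genes were 2.17% for lower calls and 17.8% for higher calls. Lower calls exceeded their rate in each of these lists. Higher calls of acute phase genes were near theirs. The part of zone or inflammation in the Cyp4a values was not tested.

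The genes whose profile over the 6 libraries lay nearest to that of Cyp4a14 were BC089597, Rnase4 and Slc1a2, at root mean squared distances of 0.483, 0.509 and 0.628 on the centred log2(RPKM + 1) scale among 6584 genes averaging 5 RPKM or more. Rnase4, a secreted ribonuclease gene, measured 144, 97.1 and 70.6 RPKM in dKO replicates 1, 2 and 3, against 695, 452 and 471 RPKM in control replicates 1, 2 and 3. Slc1a2, a glutamate transporter gene, is itself on the pericentral list and measured 0.741 to 3.71 RPKM in dKO and 6.50 to 18.1 RPKM in control libraries. All of them, like Cyp4a14, were lowest in dKO replicate 3. Nearest to Cyp4a12a were Gsn (gelsolin), Srd5a1 (a steroid reductase gene) and Arsa (a lysosomal sulfatase gene), at distances of 0.387, 0.497 and 0.529. Srd5a1 measured 35.5, 56.4 and 31.9 RPKM in dKO replicates 1, 2 and 3, against 9.67, 9.07 and 10.0 RPKM in control replicates 1, 2 and 3, with the highest value in dKO replicate 2 as for Cyp4a12a.

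**Figure D5:**
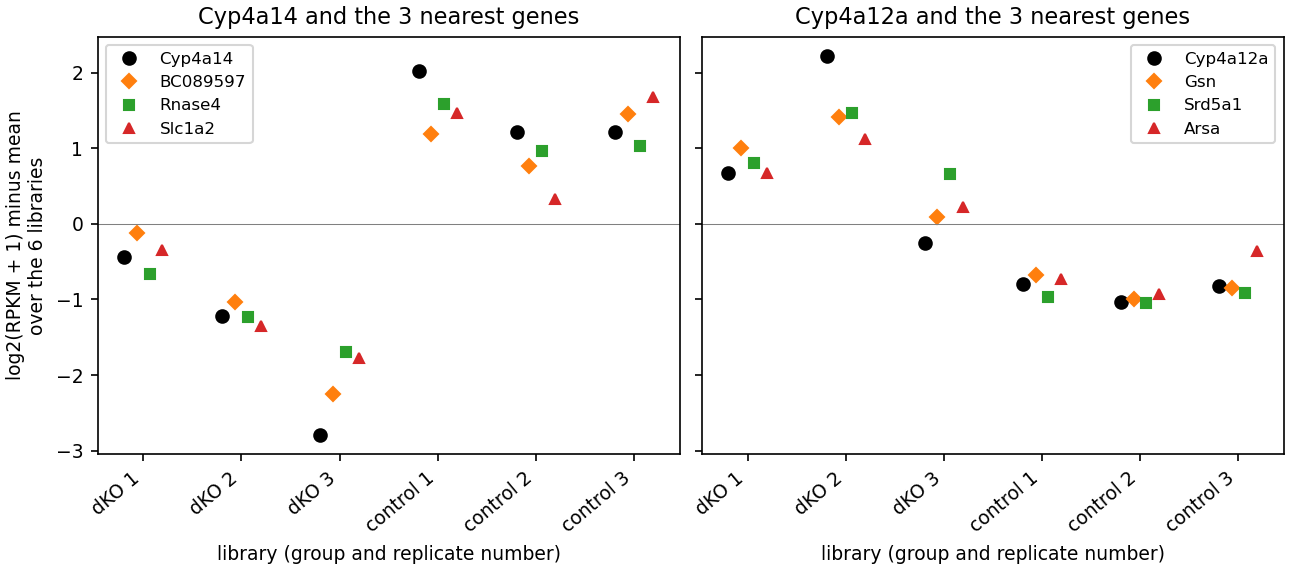
Levels of Cyp4a14 (left) and Cyp4a12a (right, black circles) with the 3 nearest genes of each, as log2(RPKM + 1) minus the mean over the 6 libraries, 1 column of points per library. Cyp4a14 and its neighbours are lowest in dKO replicate 3, while Cyp4a12a and its neighbours are highest in dKO replicate 2.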

How the data were processed

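Polyadenylated RNA of 6 liver libraries was sequenced after TruSeq preparation, per the labels' protocols. The authors aligned and counted the reads and deposited 1 RPKM value per gene symbol; the submitters' processing notes name mm9 as the build, and the aligner, counting tool and annotation are not given in the sources used here. The unit was read from the values: at the best spacing 74.3% to 80.4% of low values of single-transcript genes lay within 0.15 of a whole read, where 30% would do so at a fixed spacing, and the same spacing gave the estimated depths.

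Genes averaging 1 RPKM or more were fitted as log2(RPKM + 1) with limma 3.58.1 in R 4.3.3 (trend and robust moderation, no block), with Benjamini-Hochberg adjustment over all 11062 genes. Ratios of members used exact permutation tests. The fit was also run on simulated data in which every gene had the same spread. That run does not cover genes with a wider spread, such as Cyp4a14 and Cyp4a12a. Named were all 9 genes, up to 3 called genes of smallest p with a mean of at least 5 RPKM per pathway list, 9 fixed genes (1 is not reported here) and the 3 nearest of Cyp4a14 and Cyp4a12a; Acadl, Decr2, Slc27a2, Angptl4, Fabp2, Slc27a1, Txnip, Rxrg and Adh7 were named after their values were seen. C6 and the male-biased genes without a call were also named after their values were seen. Members and the 18 lists were chosen with earlier results of these data known. Of the list symbols some had no row in the files and were left out.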

Additional observations from a re-analysis of the deposited data

How the results depend on the processing

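The log2 differences of the tested members other than Cyp4f14 kept their sign under all alternatives run. With 1 library left out, 0 to 2 members were called lower (0 without control replicate 1 or 3, 1 without control replicate 2, dKO replicate 2 or dKO replicate 3) and 0 to 1 higher, and all tested genes gave 90 to 241 lower and 755 to 1983 higher calls. Lower PPARA targets then numbered 2 to 7 and higher ones 2 to 6. Members called lower numbered 1 without a filter, 1 under quantile normalization, 3 after median-ratio or upper-quartile scaling, 4 with sample weights and 0 at an adjusted p under 0.01. Cyp4a12a, which reached the filter only through its dKO values and has no value under a filter of 1 RPKM in at least 3 libraries, made 1 member called higher with a pseudocount of 0.1, without robust moderation and with sample weights. Over all genes, lower calls numbered 145 without a filter, 614, 561 and 554 after median-ratio, upper-quartile and quantile scaling, 601 with sample weights and 49 at an adjusted p under 0.01. Higher calls numbered 873, 899 and 727 after these scalings, 4133 with sample weights and 490 at an adjusted p under 0.01. Sample weights gave 13 lower PPARA targets, and an adjusted p under 0.01 left 1 lower and 2 higher. These scalings moved the median log2 difference of all genes down by 0.24, 0.22 and 0.27. The cause of these changes was not tested.

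Signs of genes far from the threshold turned as follows. The Cyp4f14 log2 difference was -0.18 after median-ratio scaling, -0.16 after upper-quartile scaling and -0.025 with sample weights, and -0.0029 to 0.19 with 1 library left out. Under the same median-ratio and upper-quartile scalings Abcd3 was at -0.27 and -0.25, Aldh3a2 at -0.18 and -0.17 and Ppara at -0.22 and -0.21. Ppara was at -0.11 and Ppargc1a at -0.069 under quantile normalization, and sample weights put Ppara at -0.0060 and Rxra at 0.011. With 1 library left out, Abcd3 ran from -0.11 to 0.10, Ppara from -0.069 to 0.21 and Rxra from -0.044 to 0.0091.

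The replicate numbers gave no sign of pairing: the deviations of same-numbered libraries correlated at -0.081, -0.10 and -0.0098. Those of differently numbered libraries correlated at -0.045 to 0.099. With 3 libraries per group this check cannot exclude a pairing. With a replicate block 2 members were called lower and 0 higher, at a limma adjusted p of 0.0021 for Cyp4a14 and 0.0165 for Cyp4a10, and 4 PPARA targets in each direction. Depth limits Cyp4a12a and Cyp4a12b in control libraries, where estimated reads are few.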
